A study of Brachypodium distachyon with 6 samples.

Results

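Short intronless loci were defined from the deposited annotation columns as loci on chromosomes 1 to 5 with 1 annotated transcript, 1 exon and an exonic length of 600 bp or less. They numbered 1384 of the 31694 loci of the table. They were compared with 4373 one-transcript loci that also had 1 exon but were longer than 600 bp, and with 1892 one-transcript loci of 2 to 3 exons and 600 bp or less. The choice used structure alone and no expression value. None of the loci on unplaced scaffolds had this structure, and 1 locus with several transcripts, all of them short and intronless, was not included.

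RNA came from roots of Bd21, the reference line of the grass Brachypodium distachyon, in 2 groups of 3 biological replicates. All plants grew for 7 days on a medium low in nitrogen before the treatment time. Plants of the 2,4-D group were soaked in the synthetic auxin 2,4-D (50 µM) for 1 h, and their roots carried nodule-like structures when RNA was taken 7 days later. The control group is labelled only as untreated, and a soak without hormone is not mentioned. Whole roots were used, so a difference in RNA can come from fewer or more cells of a type or from less or more RNA per cell, and these cannot be told apart.

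A gene without introns gives a transcript that needs no splicing. In plants, introns near the start of a gene are known to raise transcript levels in many cases. Known short intronless plant genes include those for core histones, for small secreted peptides, and for SAUR proteins, which respond early to auxin. Short intronless open reading frames are also the gene models that are hardest to tell from chance in a genome annotation. No names or products accompany the identifiers, and none of them matched the reference gene table, so no locus below is assigned a product or a role, and root marker genes could not be looked up.

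Library totals ranged from 12528548 to 14146109 counts, and 3 counts in 1 library corresponded to 0.208 to 0.259 CPM (counts scaled to a common library size after TMM normalization). Replicate 3 of each group stood apart for loci without introns. Of the 373 short intronless loci that entered the test, 110 had their highest value in 2,4-D replicate 3 and 96 in untreated replicate 3, or 29.5% and 25.7%. Over all 20061 tested transcripts these shares were 24.7% and 18.1%. The deviations of these 2 libraries correlated at only 0.07 over the class and 0.09 over all tested transcripts. Why each stood apart was not tested.

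Most short intronless loci had few or no counts in these roots. Of the 1384, 466 (33.7%) had 0 counts in all 6 libraries and 691 had fewer than 3 counts in every library. Only 368 had 3 or more counts in every library. Short loci of 2 to 3 exons were close to them, with 35.4% at 0 in all libraries. Over all 42868 transcripts of the table, loci with several transcripts included, the share was 31.5%. In one-transcript loci of 2 to 3 exons it was 19.8% at 601 to 900 bp and 2.33% above 1800 bp. Of the long intronless loci 8.44% were at 0.

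The number of short intronless loci with at least 3 counts was 469, 488 and 552 in untreated replicates 1, 2 and 3, and 531, 533 and 555 in 2,4-D replicates 1, 2 and 3. Untreated replicate 3 lay inside the range of the treated libraries, so the groups overlapped. The class held 0.418%, 0.429% and 0.469% of the counts of untreated replicates 1, 2 and 3. It held 0.458%, 0.547% and 0.673% of the counts of 2,4-D replicates 1, 2 and 3. The group means were 0.438% ± 0.0270 and 0.559% ± 0.108 (SD, n = 3 each), with untreated replicate 3 above 2,4-D replicate 1. The 95% Wilson interval of the highest share, 0.668% to 0.677%, covers counting error only and was far narrower than the spread between libraries. Long intronless loci held 6.43%, 6.38% and 8.36% in untreated and 7.89%, 8.11% and 10.97% in treated libraries, again with replicate 3 highest in each group and with overlap.

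Counts of the class were concentrated in few loci. Among loci that entered the test the median mean level was 10.5 CPM per kb of exon, against 5.75 in long intronless loci, 8.68 in short loci of 2 to 3 exons and 8.69 over all transcripts. This median describes only loci with enough counts to be tested, and a short locus needs a higher level per length to pass that filter. Over the whole class, 193 loci (13.9%) exceeded 10 CPM per kb, against 22.8% of long intronless loci and 11.3% of short loci with introns. Only 22 exceeded 100 CPM per kb. The 10 loci with most counts held 37.5% of all counts of the class, and the 373 tested loci held 97.6%.

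**Figure D1:**
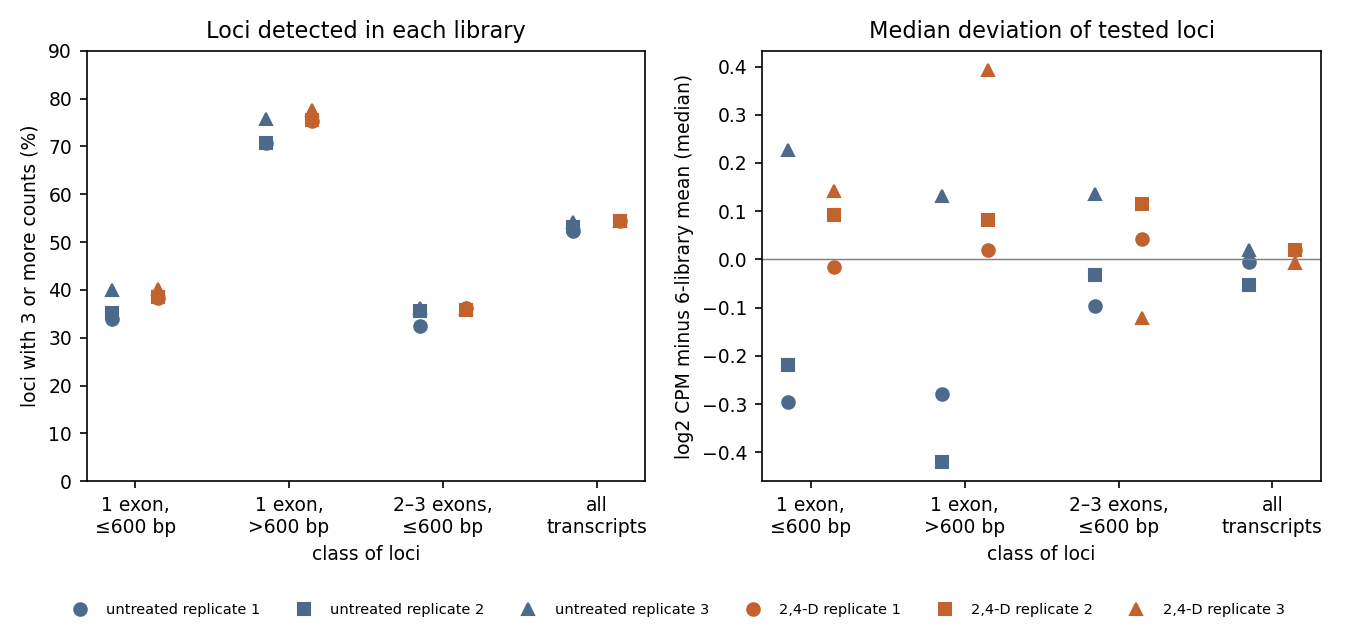
Left, the percentage of loci of each class with 3 or more counts in each library; right, the median over tested loci of log2(CPM + 0.5) minus the mean of the 6 libraries. Points are single libraries, blue for untreated and orange for 2,4-D, with a symbol for each replicate number. Short intronless loci were detected about as often as short loci with introns, and untreated replicate 3 lay at 0.23 on the right, above every treated library.

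The 2 short intronless loci with the highest level per kb differed in how steady they were. A 198 bp locus on the minus strand of chromosome 4 (14354705 to 14354902) had 261, 157 and 173 CPM in the untreated libraries and 237, 211 and 159 CPM in the treated ones. Its groups overlapped, with a log2 fold change of 0.04 (SE 0.26). A 495 bp locus on chromosome 2 (39392507 to 39393001) had 488, 603 and 198 CPM in untreated and 539.8, 782 and 246 CPM in treated replicates 1, 2 and 3. Its lowest value in each group was that of replicate 3, and the groups overlapped.

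One of the abundant members lay inside another locus. This 471 bp locus on chromosome 1 (6387932 to 6388402, plus strand) had 218, 307 and 257 CPM in untreated and 258, 232 and 263 CPM in treated libraries. It lies inside a locus on the other strand, touches none of its exons, and had 292% of that locus's level per kb. Because the counting used no strand, reads of such overlapping loci are told apart only by exon position. Its log2 fold change was -0.06 (SE 0.19).

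Other abundant members varied widely between libraries of the same group. A 297 bp locus on chromosome 4 (11919947 to 11920243) had 482, 124 and 50.9 CPM in untreated and 23.4, 216 and 54.8 CPM in treated libraries. Its direct neighbour on the same strand, a member of 598 bp (11905701 to 11906298), had 181, 58.6 and 17.3 CPM and then 7.03, 91.3 and 15.2 CPM. Both were highest in untreated replicate 1 and lowest in 2,4-D replicate 1. The 598 bp neighbour is named here because of these values. A 575 bp locus on chromosome 2 (56313727 to 56314301) had 24.3, 47.03 and 336 CPM in untreated libraries and 115, 172 and 265 CPM in treated ones, so that a single untreated library exceeded all treated ones.

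The rest of the 8 most abundant loci had values mostly on one side after 2,4-D without passing the test. A 216 bp locus on chromosome 1 (27880876 to 27881091) had 89.0, 85.8 and 62.8 CPM in untreated and 60.2, 55.9 and 46.04 CPM in treated libraries, with no overlap and a log2 fold change of -0.55 (SE 0.21, edgeR adjusted p = 0.215). A 582 bp locus on chromosome 2 (5440837 to 5441418) had 172, 87.7 and 85.1 CPM and then 209, 157 and 304 CPM, with overlap (edgeR adjusted p = 0.225). The 541 bp locus on chromosome 5 that completes the 8 is described with its neighbour below.

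**Figure D2:**
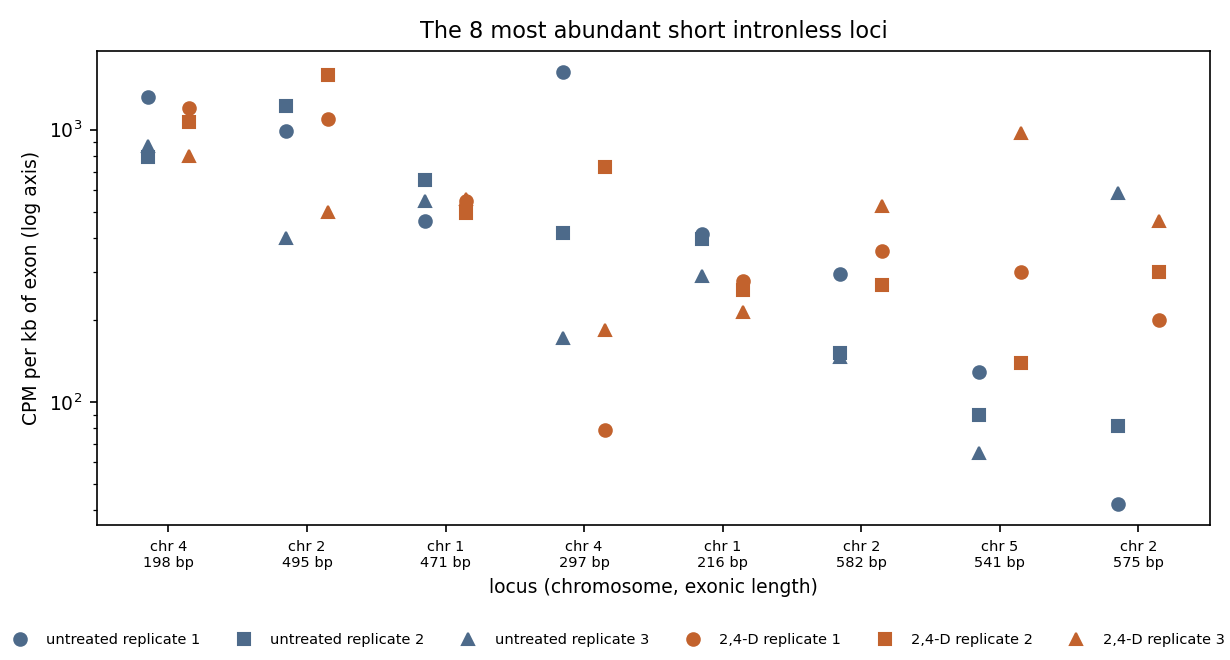
Level of the 8 short intronless loci with the highest mean CPM per kb, on a log axis, with 1 point per library. The order from left to right follows the mean, from 1007 to 278 CPM per kb. In 6 of the 8 the untreated and treated points overlap.

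After 2,4-D, 8 of the 373 tested short intronless loci passed the test, 6 of them higher and 2 lower (quasi-likelihood test of edgeR, p under 0.05 after Benjamini-Hochberg adjustment over the 20061 transcripts). That is 2.14% of the tested members, against 2.18% over all tested transcripts. By direction, 1.61% were higher and 0.536% lower, against 1.48% and 0.703% of all tested transcripts. By this test, the share called in the class was thus near the background. Long intronless loci were called in 83 of 2840 cases (69 higher, 14 lower), and short loci of 2 to 3 exons in 9 of 463 (4 higher, 5 lower). At an unadjusted p under 0.05 in edgeR, 59 of the 373 tested members were higher and 31 lower. Over all tested transcripts the shares were 10.7% and 8.72%. The share of members that were higher was thus above that of all transcripts, and the share that were lower was close to it. Of 2840 long intronless loci 503 were higher and 158 lower, and of 463 short loci of 2 to 3 exons 45 and 44. The excess of higher loci was therefore not particular to the class. The groups did not overlap in 56 loci that were higher and 41 that were lower. These were 15.0% and 10.99% of those tested, against 13.8% and 13.6% of all tested transcripts. Among long intronless loci these shares were 20.7% and 6.62%, and among short loci of 2 to 3 exons 11.9% and 13.6%.

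Over the whole table, fewer transcripts passed the test with any 1 library left out. In the class this held except without untreated replicate 3. Without untreated replicate 1 or 2, or without 2,4-D replicate 1 or 2, edgeR called 0 members, and 0 to 82 of all transcripts. In these fits 70 to 102 of 402 to 414 tested members had an unadjusted p under 0.05 in edgeR. That share was not counted over all transcripts. Without untreated replicate 3 it called 8 (2.00% of those tested, against 1.80% of all tested transcripts), of which 4 were among the original ones. Without 2,4-D replicate 3 it called 7 (1.78% against 1.25%), of which 2 were. The log2 fold changes kept their direction in each of these fits, from 3.06 to 3.76 for Bradi2g08690.1 and from -3.35 to -2.69 for Bradi4g22810.1, for example. The DESeq2 Wald test called 53 members, 33 higher and 20 lower, among 2328 transcripts called in all. That is 14.2% of the tested members, against 11.6% of all tested transcripts.

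The most abundant member that passed was Bradi2g08690.1, a 423 bp locus on the minus strand of chromosome 2 (7067777 to 7068199). Its untreated values were 16.8, 11.7 and 27.4 CPM, and its treated values were 138, 174 and 267 CPM. Its mean rose from 18.6 CPM ± 8.01 to 193 CPM ± 66.4 (SD, n = 3 each). The log2 fold change was 3.37 (SE 0.41, edgeR adjusted p = 0.0186). This was the only member called by the test against a fold change of 2 (edgeR adjusted p = 0.0493). Its adjusted p over 16 alternative fits ran from 1.16e-12 to 0.0786, and 12 of them called it.

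A 420 bp locus on the minus strand of chromosome 3 (6937100 to 6937519) also rose. It had 7.86, 6.11 and 10.1 CPM in untreated and 34.7, 33.4 and 35.2 CPM in treated libraries. All treated values lay above all untreated ones. The mean went from 8.01 CPM ± 1.99 to 34.4 CPM ± 0.948 (SD, n = 3 each; log2 fold change 2.102, SE 0.26, edgeR adjusted p = 0.0184), and 11 of 16 alternative fits called it.

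Among called loci with a mean of at least 1 CPM, Bradi2g47072.2 had the largest rise. This 294 bp locus on the minus strand of chromosome 2 (47457281 to 47457574) had 0.432, 0.436 and 1.68 CPM in untreated and 9.97, 6.88 and 14.1 CPM in treated libraries. Its log2 fold change was 3.57 (SE 0.63, edgeR adjusted p = 0.0449). A 573 bp locus on chromosome 4 (43747401 to 43747973, minus strand) had 0.518, 0.509 and 0.979 CPM in untreated and 4.16, 6.32 and 7.16 CPM in treated libraries, a log2 fold change of 3.11 (SE 0.43, edgeR adjusted p = 0.0247). In both, the highest untreated and the highest treated value were in replicate 3. Each was called in 10 of 16 alternative fits.

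The other loci that rose were near 0 in untreated roots. A 549 bp locus on chromosome 1 (34859333 to 34859881) had 1, 0 and 3 counts in untreated and 29, 19 and 25 counts in treated libraries (edgeR adjusted p = 0.0455). A 528 bp locus on chromosome 4 (45570879 to 45571406) had 1, 0 and 0 counts in untreated and 24, 15 and 39 in treated libraries (edgeR adjusted p = 0.0327). For the latter the ratio of 2,4-D over untreated, scaled by library size, was 74.8, with a 95% counting interval of 13.04 to 2993. Both averaged under 1 CPM over the 6 libraries and were described because the number of called loci was small, after their values were seen. They passed the expression filter only through their treated libraries, so their entry into the test depended on the rise. Each was called in 8 of 16 alternative fits and lost the call with any 1 library left out.

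The 2 members that fell were also weakly expressed. Bradi4g22810.1, 594 bp on the minus strand of chromosome 4 (27472233 to 27472826), had 2.68, 4.22 and 3.50 CPM in untreated and 0.502, 0.556 and 0.154 CPM in treated libraries. It fell by 3.06 on the log2 scale (SE 0.50, edgeR adjusted p = 0.0351). Bradi1g03810.1, 495 bp on the plus strand of chromosome 1 (2554893 to 2555387), had 6.91, 2.18 and 5.45 CPM and then 0.789, 0.625 and 0.462 CPM. It fell by 2.93 on the log2 scale (SE 0.53, edgeR adjusted p = 0.0467). Their treated counts were 2 to 11 in each library, so the size of the fall is limited by depth. They were called in 8 and 7 of 16 alternative fits, and both lost the call with any 1 library left out.

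**Figure D3:**
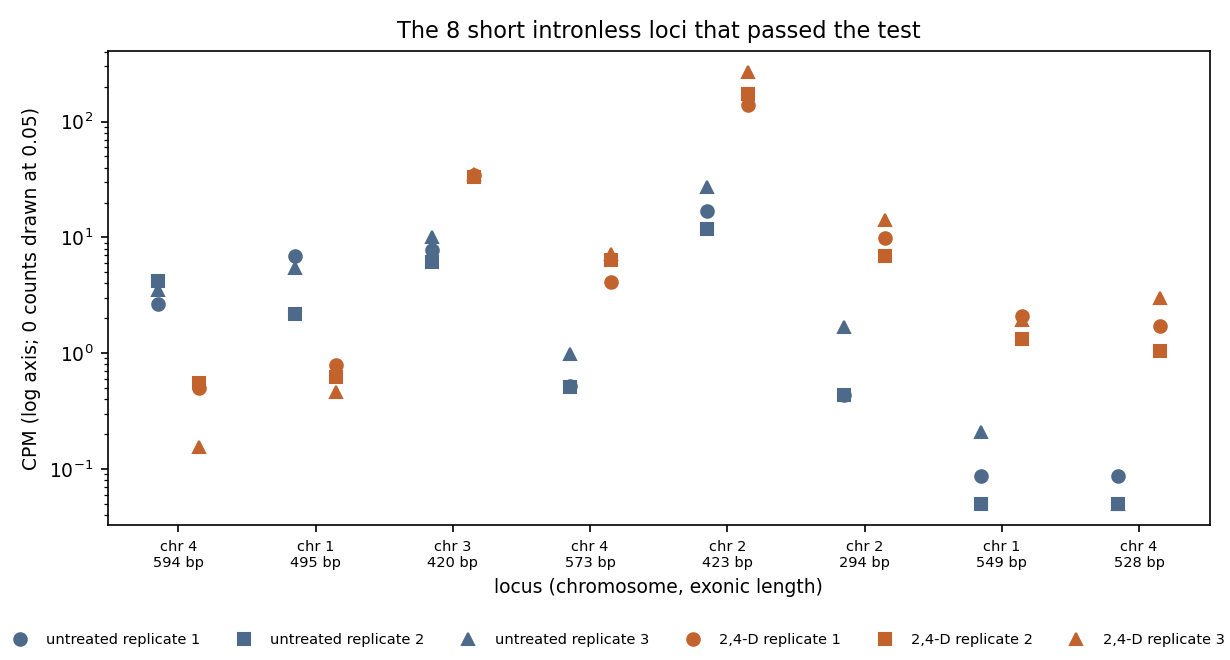
CPM of the 8 short intronless loci with an adjusted p under 0.05, on a log axis, with 1 point per library and 0 counts drawn at 0.05. The 2 loci on the left fell and the other 6 rose. In each of the 8 the untreated and treated points do not overlap.

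Of the 4 members nearest above the threshold, 2 had lower and 2 had higher values after 2,4-D. A 537 bp locus on chromosome 2 (43515954 to 43516490) had 28.5, 28.2 and 37.8 CPM in untreated and 10.3, 13.3 and 14.6 CPM in treated libraries (log2 fold change -1.31, SE 0.25, edgeR adjusted p = 0.0510). A 552 bp locus on chromosome 4 (26527394 to 26527945) had 11, 39 and 24 counts and then 2, 0 and 0 counts (edgeR adjusted p = 0.0530), a ratio of untreated over 2,4-D of 38.6 with a 95% counting interval of 10.3 to 324. The other 2 were higher in treated roots, at 360 bp on chromosome 1 (70983217 to 70983576; log2 fold change 4.05, SE 0.76, edgeR adjusted p = 0.0522) and at 543 bp on chromosome 4 (48371394 to 48371936; log2 fold change 2.25, SE 0.44, edgeR adjusted p = 0.0547). None of the class had 3 or more counts in every treated library and 0 in every untreated one. The reverse was found for 1 locus of 381 bp on chromosome 4 (5485094 to 5485474), with 7, 29 and 4 counts in untreated libraries and 0 in each treated one, too few to enter the test. It was singled out after its values were seen. How often these 2 patterns occur over all transcripts was not counted, so neither is read as a trait of the class.

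In a few loci 2,4-D replicate 3 was far above the other libraries. The 541 bp locus on chromosome 5 (25334639 to 25335179) had 69.6, 48.4 and 35.2 CPM in untreated and 162, 75.0 and 524 CPM in treated libraries (log2 fold change 2.31, SE 0.71, edgeR adjusted p = 0.147). The locus next to it, 587 bp on the same strand (25332833 to 25333419), had 14.3, 2.40 and 4.05 CPM and then 10.8, 3.89 and 301 CPM. Together they held 0.0822% of the counts of 2,4-D replicate 3, and without them the class share in that library was 0.591% instead of 0.673%. Another pair of neighbours, both 573 bp on chromosome 4 (4319169 to 4319741 and 4321619 to 4322191), had 5.81, 10.6 and 272 CPM and 1.29, 1.46 and 43.9 CPM in the treated libraries. In the untreated ones they had 31.2, 1.82 and 2.38 CPM and 5.87, 0.145 and 0 CPM, highest in replicate 1. These pairs were chosen after their values were seen. Of 161 pairs of direct neighbours within the class, both were tested in 20, and 14 of these had the same sign of change.

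The class median lay nearer 0 than that of long intronless loci. The median log2 fold change of tested short intronless loci was 0.11 (quartiles -0.46 and 0.94), against 0.40 in long intronless loci, 0.04 in short loci of 2 to 3 exons and 0.02 over all transcripts. The share with a positive change was 56.3%, 67.8%, 53.3% and 51.4% in the same order. With a filter on the mean over all 6 libraries, which does not look at the groups, the medians were 0.14 for 344 short and 0.42 for 2749 long intronless loci with at least 1 CPM. No p-value is given for these medians, since they are scores over chosen members.

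By library, the median deviation of short intronless loci from their 6-library mean was -0.30, -0.22 and 0.23 in untreated and -0.02, 0.09 and 0.14 in treated replicates 1, 2 and 3 (log2 scale). Untreated replicate 3 was thus higher than all treated libraries. Without it the median log2 fold change was 0.48, and without 2,4-D replicate 3 it was -0.06. For long intronless loci the deviations were -0.28, -0.42 and 0.13, then 0.02, 0.08 and 0.39, and leaving out the same libraries gave 0.68 and 0.15. In short loci with introns, 2,4-D replicate 3 was instead the lowest library, at -0.12. The part of these library differences in the class medians was not tested.

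Replicate spread was wide in the class. The median SD within groups was 0.59 on the log2(CPM + 0.5) scale, close to the 0.58 of long intronless loci, against 0.43 in short loci with introns and 0.37 over all tested transcripts. Above 20 CPM it was 0.63 in 47 short and 0.60 in 720 long intronless loci. At that level it was 0.43 in 69 short loci with introns and 0.29 over all transcripts. The median change did not follow level within the class, at 0.17 up to 2 CPM, 0.08 from 2 to 5 CPM, 0.13 from 5 to 20 CPM and -0.04 above.

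Within the class, the longest loci had the highest median change. The median log2 fold change was -0.03 in 22 tested loci up to 200 bp, 0.08 in 57 above that up to 300 bp, -0.05 in 66 up to 400 bp, 0.18 in 85 up to 500 bp and 0.44 in 143 above 500 and up to 600 bp. Deviations by library in this last bin were -0.32, -0.34 and 0.25 in untreated replicates 1, 2 and 3. In treated replicates 1, 2 and 3 they were -0.04, 0.07 and 0.33. Untreated replicate 3 was thus above 2,4-D replicates 1 and 2. Beyond the limit the median change stayed between 0.35 and 0.49 in all 4 length bins of intronless loci. In loci of 2 to 3 exons the same bins up to 600 bp ran from -0.34 in 11 loci through -0.16, 0.04 and 0.12 to 0.13, and stayed between 0.06 and 0.14 beyond. Only the first of these bins held fewer than 20 loci, and the quartiles of all bins up to 600 bp overlapped. At the limit itself, 13 tested loci of 591 to 600 bp had a median of -0.25 and 23 of 601 to 610 bp had 0.32, a difference as large as those between the bins.

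**Figure D4:**
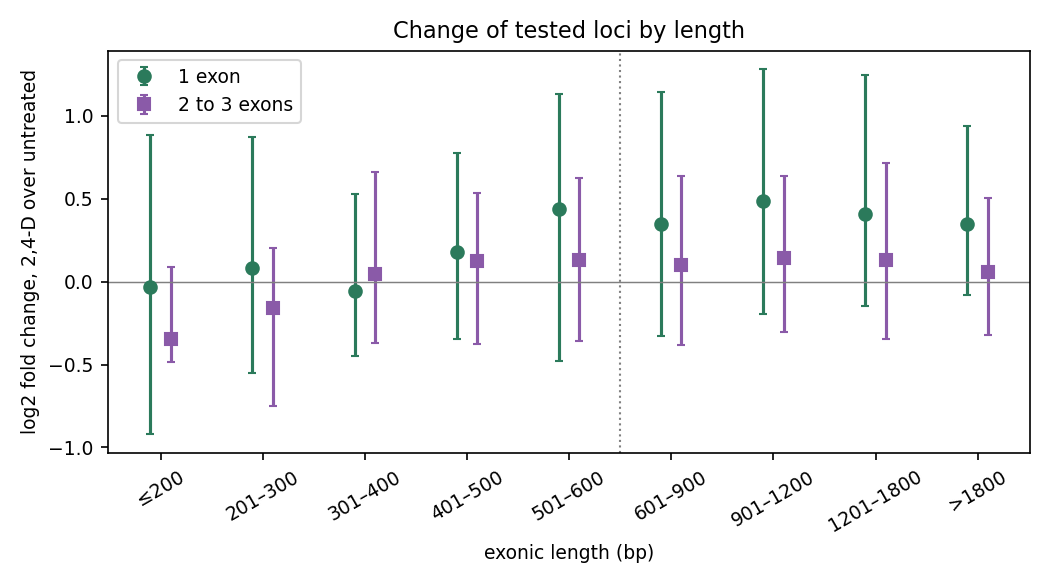
Median log2 fold change (2,4-D over untreated) of tested one-transcript loci by exonic length, with bars from the lower to the upper quartile over loci, for 1 exon (circles) and 2 to 3 exons (squares). The dotted line marks the 600 bp limit. Intronless loci lie near 0 up to 400 bp and at 0.44 in the bin above 500 and up to 600 bp, close to the longer bins.

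The models themselves shared a trait that the choice did not use. The exonic length was a multiple of 3 in 89.8% of them, as in a model that holds a coding sequence alone, against 57.1% of long intronless loci and 81.4% of short loci with introns. The 141 members whose length was not a multiple of 3 were seen more often. Of these, 8.51% were at 0 in all libraries and 48.2% entered the test, against 36.5% and 24.5% of the other 1243. Their median change was 0.12 against 0.11. The 8 called members had lengths that were multiples of 3, as had 305 of the 373 tested ones. For models without untranslated parts, length here means coding length, so CPM per kb overstates the level where the real transcript is longer.

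Members made up 4.10% to 4.55% of the loci of each chromosome. They lay on the minus strand more often than on the plus strand, with 611 of 1384 (44.1%) on the plus strand. Long intronless loci showed the opposite, with 57.6% on the plus strand, and short loci with introns had 54.7%. The share on the plus strand was below 50% on chromosomes 1 to 4, at 42.1% to 45.2%, and 52.2% on chromosome 5. The median change was 0.04 on the plus and 0.18 on the minus strand. The nearest other locus was a median of 1176 bp away, against 1386 bp for long intronless loci and 1114.5 bp for short loci of 2 to 3 exons. Of the members, 20.7% had another member as a direct neighbour, while 9.54% of long intronless loci and 10.1% of short loci with introns had a member as one.

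Members inside other loci had a negative median change, as had such loci of the other classes. In all, 119 of 1384 overlapped the span of another locus and 103 lay wholly inside one. Of the latter, 34 were tested, 30 of them without touching an exon of the host, and 19 were on the strand of the host. Their median log2 fold change was -0.30, with 29.4% positive, against 0.18 and 59.0% in members not inside another locus. Loci inside others had medians of -0.12 (41.2% positive) among long intronless loci and -0.17 (38.5% positive) among short loci with introns. In 28 of them the host was tested as well, and member and host had the same sign in 19. In these 28 pairs the median was -0.20 for the members and 0.10 for the hosts. The member had a median of 57.7% of the level per kb of its host and exceeded it in 9 cases. Of these 34, 0 were called, where 2.18% of all tested transcripts were, so a count of 0 says little about so few loci.

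The members also divided by their locus number. In the table, 61.3% of locus numbers end in 0, against 41.1% of short intronless loci, 64.1% of long intronless ones and 24.2% of short loci with introns. The 181 tested members with a number ending in 0 had a median log2 fold change of 0.45, and the other 192 had -0.09. Their deviations by library were -0.43, -0.48 and 0.27 in untreated and -0.02, 0.13 and 0.46 in treated libraries for the former. For the latter they were -0.12, -0.03 and 0.20, then -0.01, 0.06 and -0.03. The split held up to 450 bp (0.32 against -0.12) and above (0.48 against -0.05), and among members that overlap no other locus (0.45 against -0.02). In long intronless loci the medians were 0.49 and 0.21, and in short loci with introns 0.19 and 0.00. Of the 8 called members, 6 were among the 181 and 2 among the 192, where 2.18% of all tested transcripts were called. This division was looked at after the data were seen and is given without a test.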

How the data were processed

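The authors deposited 1 table of raw counts per transcript for 6 libraries, with no normalization. Per the file headers, featureCounts 1.4.3 counted read pairs of 50 to 1000 bp on exons of annotation version 2.1, per transcript and without a strand option. Other tools listed, per the submitters' processing notes, are limma 3.28.7, Subread 1.4.3, FastQC 0.11.3 and bcl2fastq 1.8.4. The aligner is not given in the sources used here. Libraries came from a stranded mRNA kit, per the labels' protocols.

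All 42868 transcripts were fitted in edgeR 4.0.16 (R 4.3.3) with TMM normalization, the expression filter by group (minimum count 10), robust dispersions and the quasi-likelihood F test on group. P-values were adjusted over the 20061 tested transcripts. Standard errors are the log2 fold change over the root of F. P-values rest on 3 libraries per group. Medians by library used log2(CPM + 0.5). The fit was tested on simulated data. Libraries of 1 group differed with a chi-square of at least 17.1 per degree of freedom, so none repeated another.

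Members, classes and lists were chosen with earlier results of these data known. The loci named were members with an adjusted p under 0.05 and at least 1 CPM, the 8 highest per kb and the 4 nearest above the threshold; others are marked. Product lists could not be used, since 0 identifiers matched the reference table (assembly version 3.0). No sequence is shown, as no genome of this annotation was used here. Alternatives were other scalings, DESeq2 1.42.0, limma 3.58.1 with voom, filters, a minimum fold change of 2, a replicate block, a removed length trend, other length limits and leaving out each library.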

Additional observations from a re-analysis of the deposited data

How the results depend on the processing

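Against 8 called short intronless loci, the DESeq2 Wald test called 53, or 14.2% of those tested against 11.6% of all tested transcripts. Testing against a minimum fold change of 2 left 1, or 0.268% against 0.389% of all tested transcripts. Leaving out 1 library gave 0 to 8, or 0% to 2.00% against 0% to 1.80%. With a length limit of 300, 450 or 900 bp the count was 1 of 79 tested, 3 of 181 or 25 of 1046. These were 1.27%, 1.66% and 2.39%, against 2.18% of all tested transcripts. The other scalings, filters, limma voom, a removed length trend and dropping overlapping loci gave 8 to 12. These were 1.31% to 3.22% of those tested, against 1.71% to 2.47% of all tested transcripts. The count was 12 both with upper-quartile scaling (3.22% against 2.38%) and with no low-count filter (1.31% against 1.71%). Same-numbered libraries did not deviate together in every pair. Their correlations were -0.10, 0.35 and 0.09 over all tested transcripts and -0.25, 0.48 and 0.07 over the class. Differently numbered pairs ran from -0.41 to 0.29 over all tested transcripts and from -0.55 to 0.41 over the class. The highest value in both sets was that of the replicates numbered 2, so these correlations cannot decide whether libraries were paired. The series text gives no pairing, and the numbers are not taken as pairs. With a replicate block 6 members were called, 4 of them shared, or 1.61% against 1.15% of all tested transcripts. The median log2 fold change of the class (0.11) ran from -0.058 to 0.48 with 1 library left out, the latter without untreated replicate 3. Library totals moved the median of all transcripts from 0.02 to 0.10 and that of the class to 0.19. The rise in the class share (0.121 percentage points) was -0.00342 at up to 300 bp and 0.0311 at up to 450 bp, and with 1 library left out it ran from 0.0643 to 0.172. The median of log2(CPM per kb + 0.5) over all members, untested ones included, differed by 0.02 between groups and by 0.25 at up to 900 bp; it stood at the value of 0 counts in 4 of 6 libraries, so the 0.02 carries no information on the change. Of 319 refits of 20 named loci, 54 lost a call, 16 gained one and 9 changed sign, all 9 among abundant loci that were not called. With 1 library left out these ran from -0.11 to 0.29 (198 bp, chromosome 4), -0.13 to 0.62 (495 bp, chromosome 2), -0.17 to 0.074 (471 bp, chromosome 1), -2.49 to 0.16 (297 bp, chromosome 4) and -0.059 to 2.36 (575 bp, chromosome 2), and the 471 bp locus was at 0.025 with library totals. The causes were not tested. Of 1384 members, 1011 had too few counts to be tested, 466 of them with 0 counts in every library. Low depth and absent expression cannot be told apart there. For the 49 members that overlap an exon of another locus, counts also depend on how shared reads were assigned, which was not tested.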
